A study of Mus musculus with 48 samples.

Results

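Dbp, Tef and Hlf, the 3 transcription factors of the proline and acidic amino acid-rich (PAR) bZIP family, and Nfil3, a bZIP repressor that competes for their binding site, were followed in the mouse pars tuberalis (PT), the thin layer of pituitary tissue around the stalk. They were chosen by name, as 4 of the 18194 genes measured. Each gene was represented by its brightest single-symbol probe set, averaged over the 48 arrays: 1438211_s_at for Dbp (chr7:45705100-45710203 in GRCm38.p6), 1424175_at for Tef (chr15:81802673-81826863), 1434736_at for Hlf (chr11:90336535-90390917) and 1418932_at for Nfil3 (chr13:52967209-52982878). For a check there was 1 other probe set of Dbp, 1 of Hlf and 2 of Tef, and none of Nfil3.

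All animals were male CBA/N mice that had first lived for 3 weeks under a short-day cycle of 8 h light and 16 h dark at 400 lux. The short-day group stayed in that cycle for a further 2 weeks, and the long-day group spent those 2 weeks in 16 h light and 8 h dark; both were 8 weeks old. The other 2 groups, 6 weeks old, were sampled on the first long day: in the advance condition the lights came on 8 h early, and in the delay condition darkness began 8 h late. Tissue was taken at 6 time points 4 h apart, 2 arrays per time point, each from the punched PT of 25 pooled mice in 1 of 2 repeats of the experiment, so p-values measure the spread between such pools. Zeitgeber time (ZT) is the number of hours since lights on, and in the advance condition it keeps to the lights-on hour the mice had known before, so that its long day began at ZT16. Lights came on at clock hour 7 in the short-day and delay groups and at clock hour 3 in the long-day group, as read from the sample titles.

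In the circadian clock, CLOCK and BMAL1 drive genes through E-box elements, and the PAR bZIP genes are classic outputs of that step. DBP, TEF and HLF proteins activate transcription from D-box elements, whereas NFIL3 represses from the same elements and is itself repressed through ROR elements by the REV-ERB receptors, so it usually runs opposite to DBP. In the PT, the night-time melatonin signal sets the clock to the photoperiod, and TEF with EYA3 has been linked to the long-day induction of Tshb, the beta subunit of thyrotropin.

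The values are log2 intensities, normalized across arrays. Array medians lay between 6.98 and 7.03. Of the 6 genes on the PT marker list with a probe set, all (Tshb, Cga, Mtnr1a, Eya3, Pitx1 and Dio2) had mean log2 levels above the arrays' first quartile of 5.42. Dio2 is not specific to the PT. Within pairs of arrays, long-day ZT16 and ZT20 stood apart: the gap between the 2 arrays in Dbp was 1.00 and 1.36 log2 units, against at most 0.40 in the other 22 pairs, and in opposite directions. At ZT16 replicate 2 had the lower Dbp value and at ZT20 the higher. The members' tests of long days and the clock hours that use these arrays are therefore also given without replicate 2 of both time points, where the arrays left alone are assumed to vary like the other groups. In punched tissue, fewer cells of a type and less RNA per cell cannot be told apart.

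The promoters of the members are shown because the rule of choice did not use them and E-boxes, D-boxes and ROR elements are the sites this family is known for. RefSeq start sites of GRCm38.p6 gave 5 promoters for the 4 genes, and the 250 bases before each start were searched on both strands for CACGTG (E-box), TTANGTAA (D-box), TNGGTCA (core of the ROR element) and TGACGTCA (cyclic AMP response element), a choice of motifs made after the sequences had been read. The motifs do not contain one another. Capitals mark the matches, and each sequence is written 5′ to 3′ along the gene's strand. The first Tef promoter (chr15:81802423-81802672, plus strand) and the Hlf promoter (chr11:90390918-90391167, minus strand) are given whole. For the second Tef promoter (chr15:81811264-81811293, plus strand) and for Nfil3 (chr13:52981040-52981069, minus strand) 30 bases around a match are given.
Tef promoter 1: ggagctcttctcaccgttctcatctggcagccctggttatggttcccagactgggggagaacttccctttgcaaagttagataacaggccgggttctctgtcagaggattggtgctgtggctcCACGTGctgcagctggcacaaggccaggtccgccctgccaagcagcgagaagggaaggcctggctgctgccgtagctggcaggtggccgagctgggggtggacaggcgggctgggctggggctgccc
Tef promoter 2: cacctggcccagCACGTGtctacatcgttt
Hlf promoter: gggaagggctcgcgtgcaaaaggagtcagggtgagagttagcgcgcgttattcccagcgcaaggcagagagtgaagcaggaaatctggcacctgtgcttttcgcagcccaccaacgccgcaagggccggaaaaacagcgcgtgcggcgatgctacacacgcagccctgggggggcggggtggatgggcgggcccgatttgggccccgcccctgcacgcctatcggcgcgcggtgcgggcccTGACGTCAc
Nfil3 promoter: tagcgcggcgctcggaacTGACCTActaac
Both Tef promoters held CACGTG, 127 and 138 bases before the start at its first base, and the second also held a ROR core, TGACCAA on the other strand, 219 bases before the start. Hlf held TGACGTCA 9 bases before its start, and Nfil3 a ROR core, TGACCTA on the other strand, 12 bases before its start. None of the 4 motifs matched in the 250 bases before the Dbp start used, and the D-box matched in none of the 5 promoters. The Dbp window, chr7:45704997-45705246, ran into the gene span given above, and the Nfil3 start also lay inside its gene span. For these genes the 250 bases before the 5′ end of the span were therefore not searched in full. Of all 32851 promoters in the table, 6.02% held the E-box before the start, 9.19% the ROR core, 2.06% the D-box and 1.55% the cyclic AMP response element. A match is only a match of letters.

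Dbp, the PAR bZIP factor with the widest daily swing here, was high in the light phase under short days. The pairs of arrays gave log2 values of 12.22 and 12.50 at ZT0, 13.04 and 12.78 at ZT4, 12.35 and 12.13 at ZT8, 11.0004 and 11.05 at ZT12, 10.85 and 11.13 at ZT16, and 11.68 and 11.59 at ZT20. Both arrays of ZT4 stood above every other short-day array, and those of ZT12 and ZT16 below every other. The mean at ZT4 was 3.78-fold that at ZT16. A 24 h cosine put the peak at ZT 3.18 ± 0.432 h (SE), or clock hour 10.2, with an amplitude of 0.99 ± 0.11 log2 units, and the peaks fitted to each replicate alone were ZT 3.43 and 2.89. The variation over the day passed the limma F test (adjusted p = 1.41e-06). All 4 members passed this test under short days, where 8.91% of all genes did.

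Under long days the Dbp maximum moved to ZT12. The values were 10.82 and 10.82 at ZT0, 11.22 and 11.10 at ZT4, 12.33 and 12.35 at ZT8, 12.73 and 12.79 at ZT12, 12.35 and 11.34 at ZT16, and 11.004 and 12.36 at ZT20. The lowest arrays were those of ZT0, where short-day arrays were high. The fitted peak was ZT 12.0 ± 0.489 h, close to clock hour 15, with an amplitude of 0.87 ± 0.11 (adjusted p of the variation = 7.25e-06). Without the replicate 2 arrays of ZT16 and ZT20 the peak was ZT 11.9 ± 0.321 h, the amplitude 1.04 ± 0.08 and the adjusted p 8.63e-13. Dbp, Tef and Nfil3 passed the test of variation under long days and Hlf did not, against 1.63% of all genes.

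**Figure D1:**
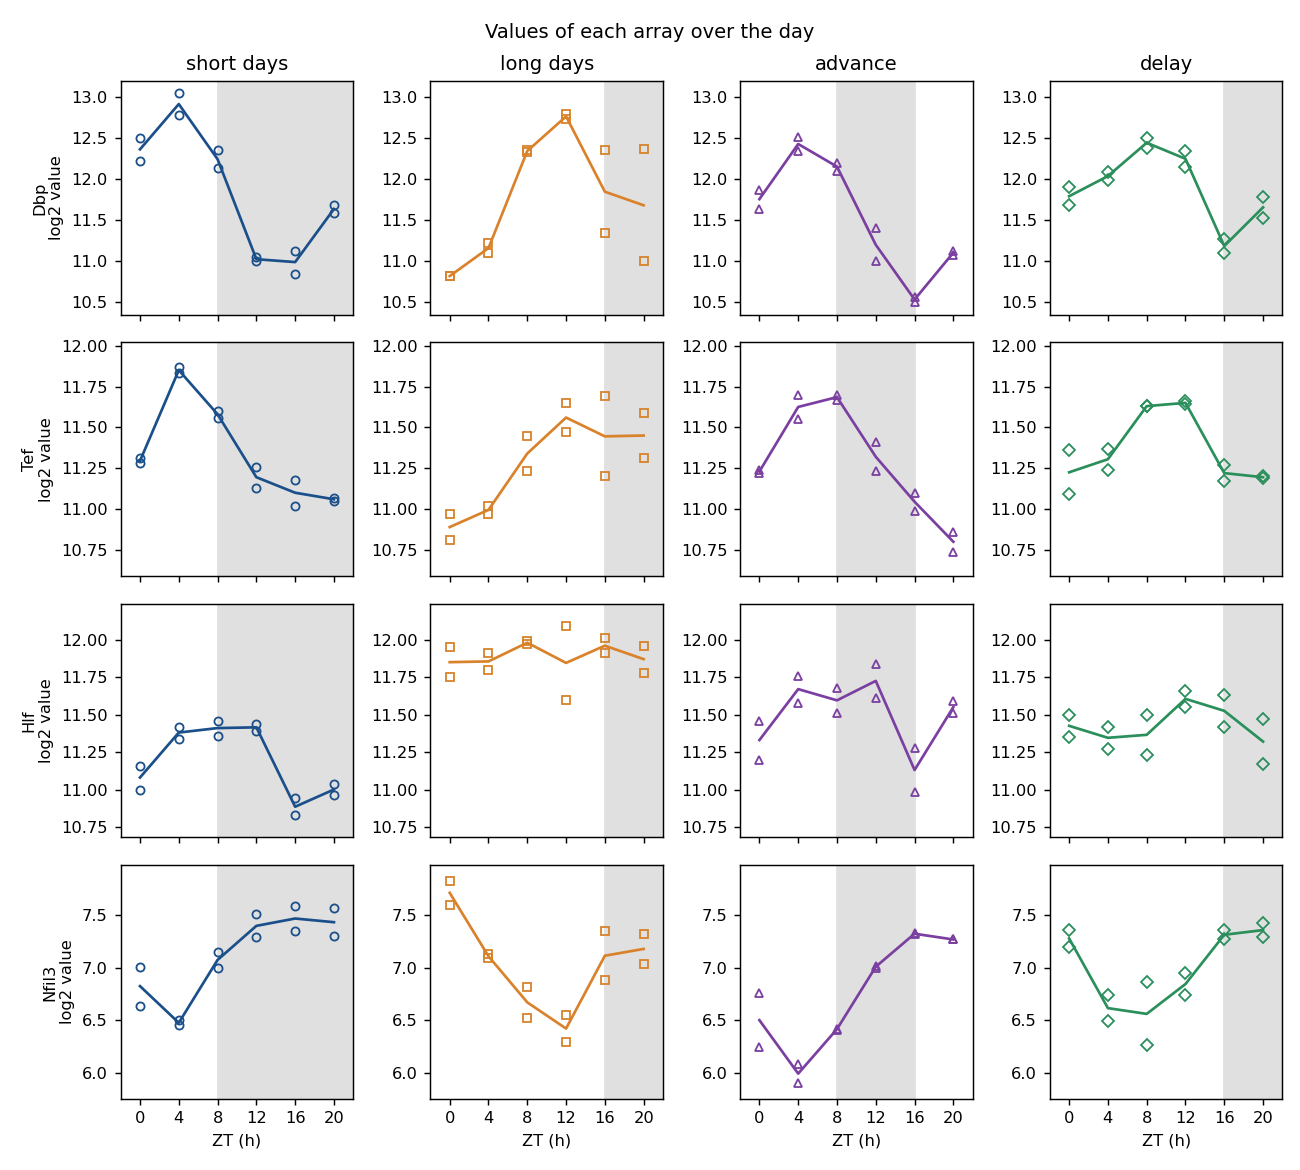
Log2 values (vertical axis) of the 4 genes (rows) against ZT in hours (horizontal axis) in the 4 lighting conditions (columns). Each symbol is 1 array, lines join the means of 2 arrays, and shading marks darkness (for the advance condition read from the 16 h light from ZT16); Dbp peaks at ZT4 under short days and at ZT12 under long days, and Nfil3 is lowest at those times.

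Matching by clock time keeps the earlier lights on of the long-day group in the comparison, whereas matching by ZT aligns lights on. By clock time the Dbp course differed between long and short days (F test of 5 differences of course, adjusted p = 0.000297). This course differed by clock time for 2 of the 4 members, Dbp and Tef, against 0.467% of all genes; by ZT it differed for Dbp, Tef and Nfil3 (adjusted p for Dbp = 1.26e-08), against 4.3%. Without the 2 arrays the course by ZT passed for the same 3 genes (8.28e-16 for Dbp, 2.19e-08 for Tef and 5.59e-06 for Nfil3). Dbp was lower under long days at clock hour 3 (10.82 and 10.82 against 11.68 and 11.59; fell by 0.82 ± 0.24, adjusted p = 0.0195, 13.4% of all genes passing at that hour) and at clock hour 7 (11.22 and 11.10 against 12.22 and 12.50; fell by 1.20 ± 0.24, adjusted p = 0.000487, 19.7%). Long-day and short-day arrays did not overlap at either hour. At clock hour 19 it was higher by 0.82 ± 0.24 (adjusted p = 0.049, 3.16%), and both long-day arrays, 12.35 and 11.34, exceeded both short-day arrays, 11.0004 and 11.05; without the replicate 2 arrays the difference was 1.33 ± 0.15 (adjusted p = 3.72e-06). At clock hour 23 it was higher by 0.69 ± 0.24 (adjusted p = 0.0467, 14.9%), but there replicate 1 at 11.004 lay between the short-day values of 10.85 and 11.13, so the difference rested on the replicate 2 array at 12.36; without both replicate 2 arrays the difference was 0.01 ± 0.15 (adjusted p = 0.982). At clock hours 11 and 15 the differences did not pass (adjusted p = 0.0774 and 0.164).

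Tef, an activator of the same D-box sites and the member linked to Tshb, followed Dbp with a smaller swing. Under short days its values were 11.28 and 11.31 at ZT0, 11.87 and 11.83 at ZT4, 11.60 and 11.56 at ZT8, 11.13 and 11.26 at ZT12, 11.02 and 11.18 at ZT16, and 11.07 and 11.05 at ZT20. Both ZT4 arrays were above all others, followed by both of ZT8, and the mean at ZT4 was 1.73-fold that at ZT20 (variation, adjusted p = 2.95e-05). The fitted peak was ZT 5.27 ± 0.539 h, clock hour 12.3.

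Under long days Tef was lowest at ZT0 and ZT4 and highest from ZT12. Its values were 10.97 and 10.81 at ZT0, 10.97 and 11.02 at ZT4, 11.23 and 11.45 at ZT8, 11.47 and 11.65 at ZT12, 11.69 and 11.20 at ZT16, and 11.31 and 11.59 at ZT20. The arrays of ZT0 and ZT4 lay below every later array. The fitted peak was ZT 14.0 ± 0.621 h, clock hour 17.0 (variation, adjusted p = 0.000398), and ZT 13.8 ± 0.512 h without the 2 discordant arrays (4.68e-06). By clock time the course differed from short days (adjusted p = 0.0104, and 0.000461 without the 2 arrays), and without the long-day ZT8 replicate 1 array the adjusted p was 0.0561. Tef was lower under long days at clock hour 11 (11.23 and 11.45 against 11.87 and 11.83; fell by 0.51 ± 0.11, adjusted p = 0.00101, 24.5% of all genes) and higher at clock hour 23 (11.31 and 11.59 against 11.02 and 11.18; 0.35 ± 0.11, adjusted p = 0.0312). The value of 11.59 is that of the discordant replicate 2 array, and without both of these arrays the difference at clock hour 23 was 0.21 ± 0.11 and did not pass (adjusted p = 0.275). At clock hour 19 the difference was 0.25 ± 0.11 and did not pass (adjusted p = 0.236), and without the discordant arrays it was 0.49 ± 0.11 and did (0.0162). At clock hours 3 and 7 Tef differed by -0.17 ± 0.11 and -0.30 ± 0.11, and neither passed (adjusted p = 0.367 and 0.0529).

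The Tef tests held for the brightest of its 3 probe sets. On 1438033_at, whose mean level was 9.76, the fitted peaks were ZT 5.1 under short days, 13.2 under long days and 6.2 in the advance condition. Its amplitudes there were 0.42, 0.47 and 0.54 log2 units, but the variation did not pass (adjusted p = 0.637, 0.86 and 0.591). Under delay its fitted peak was ZT 5.75, and replicate 1 lay far below replicate 2 at 5 of 6 time points, for example 8.10 against 9.69 at ZT0. The fit shares its estimate of the spread over all conditions, so these gaps also widen the spread used for the other conditions. The tests on this probe set therefore cannot show that its course was absent there. On 1450184_s_at, with a mean level of 6.88, all 48 values lay between 6.49 and 7.14 and no variation passed. The second Dbp probe set, 1418174_at, gave peaks of ZT 3.55, 12.2, 4.76 and 7.35 under short days, long days, advance and delay, and the adjusted p of its course by clock time was 0.000109.

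Nfil3, the repressor, ran opposite to Dbp. Under short days its values were 6.64 and 7.01 at ZT0, 6.45 and 6.50 at ZT4, 7.15 and 6.999 at ZT8, 7.51 and 7.29 at ZT12, 7.59 and 7.35 at ZT16, and 7.30 and 7.57 at ZT20. It was lowest at ZT4, where Dbp was highest, and the 6 arrays from ZT12 to ZT20 lay above all others (variation, adjusted p = 0.000544). The mean at ZT16 was 1.99-fold that at ZT4, and the fitted peak was ZT 15.5 ± 0.596 h, with 14.6 and 16.7 from each replicate alone. Its single probe set sat near the middle of the array's range (mean log2 6.97, 49.5th percentile of probe sets).

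Under long days Nfil3 was lowest at ZT12 and highest at ZT0. Its values were 7.83 and 7.60 at ZT0, 7.13 and 7.09 at ZT4, 6.82 and 6.52 at ZT8, 6.29 and 6.55 at ZT12, 6.88 and 7.35 at ZT16, and 7.32 and 7.04 at ZT20. Both ZT0 arrays exceeded all other long-day arrays, and the mean at ZT0 was 2.46-fold that at ZT12 (variation, adjusted p = 0.000156). The fitted peak was ZT 22.9 ± 0.545 h, clock hour 1.93; without the 2 discordant arrays it was ZT 23.1 ± 0.510 h (variation, adjusted p = 5.53e-05). Its course differed from short days by ZT (adjusted p = 1.26e-05), and by clock time it did not pass (adjusted p = 0.148; 0.0723 without the 2 discordant arrays). Of the 6 clock hours, only hour 15 passed, where the long-day values of 6.29 and 6.55 lay below the short-day values of 7.15 and 6.999 (fell by 0.66 ± 0.17, adjusted p = 0.0113, against 12.7% of all genes).

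**Figure D2:**
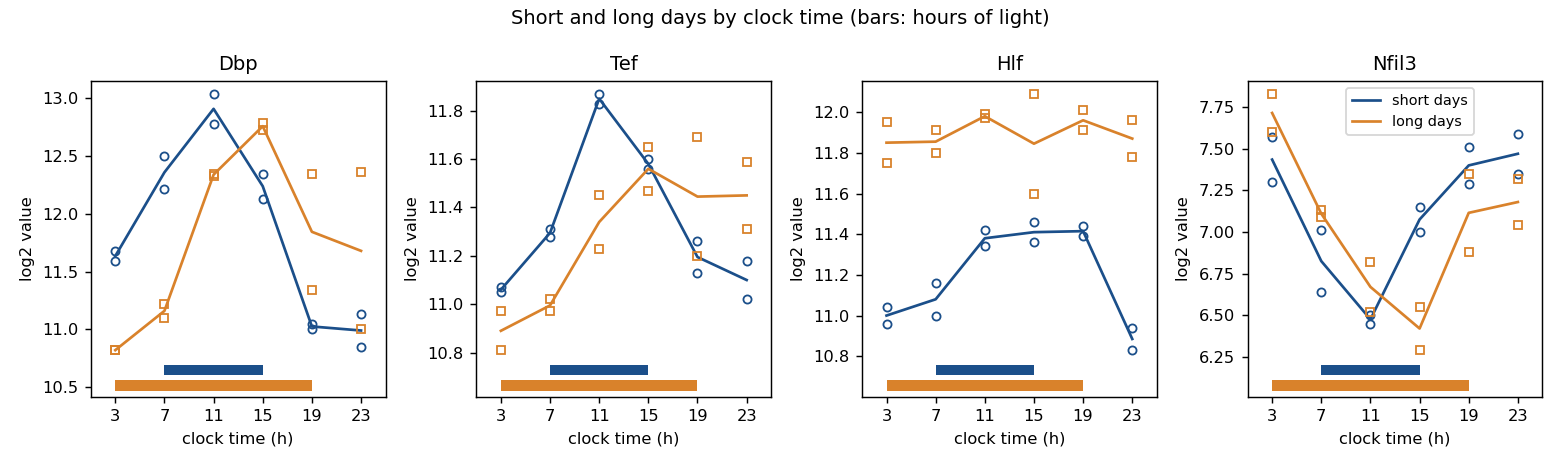
Log2 values (vertical axis) of each gene under short days (circles) and long days (squares) against clock time in hours (horizontal axis); each symbol is 1 array, lines join means of 2 arrays, and the bars at the bottom mark the hours of light. Dbp is lower under long days at clock hours 3 and 7 and Tef at clock hour 11, and the means of Hlf are higher at all 6 hours.

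Hlf, the family member with the smallest swing in the PT, differed in level between the photoperiods. The 12 short-day arrays ran from 10.83 to 11.46 with a median of 11.25, and the 12 long-day arrays from 11.60 to 12.09 with a median of 11.93. The lowest long-day array stood above the highest short-day array. The day mean was 0.70 ± 0.05 log2 units higher, 1.62-fold (adjusted p = 1.14e-12), where 46.7% of all genes changed, 17.6% higher and 29.1% lower. Hlf was the only member whose day mean passed; the differences were -0.09 ± 0.10 for Dbp, -0.07 ± 0.05 for Tef and -0.08 ± 0.07 for Nfil3. Without the long-day ZT20 replicate 2 array the Dbp difference was -0.21 and passed, and without long-day ZT16 replicate 1 that of Tef was -0.11 and passed. Without the 2 discordant arrays the Hlf difference was 0.67 (adjusted p = 6.09e-11), and the others, at -0.12, -0.05 and -0.09, did not pass (0.0601, 0.338 and 0.328). The second Hlf probe set gave 0.45, again with no overlap: its highest short-day array was 11.18 and its lowest long-day array 11.21.

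Of the 6 clock hours the Hlf difference was largest at hour 23, in darkness under both cycles, with long-day values of 11.78 and 11.96 against 10.94 and 10.83 (0.98 ± 0.13 higher, 1.98-fold, adjusted p = 4.81e-06). It was smallest at clock hour 15, with 11.60 and 12.09 against 11.36 and 11.46 (0.44 ± 0.13, adjusted p = 0.0217). All 6 clock hours passed. Without the discordant arrays the difference was 0.89 ± 0.16 at clock hour 23 (adjusted p = 0.000831) and 0.49 ± 0.16 at clock hour 19, which then did not pass (0.129). Hlf varied over the short day, with 10.996 and 11.16 at ZT0, 11.42 and 11.34 at ZT4, 11.36 and 11.46 at ZT8, 11.44 and 11.39 at ZT12, 10.94 and 10.83 at ZT16, and 10.96 and 11.04 at ZT20. The 6 arrays of ZT4 to ZT12 lay above the other 6 (adjusted p = 0.00832; 0.153 on the second probe set). Under long days its variation did not pass (adjusted p = 1), and the fitted amplitude was 0.03 ± 0.06 against 0.28 ± 0.06 under short days, so no peak time can be read there. The test of the difference in course did not pass by ZT (adjusted p = 0.109; 0.02 without long-day ZT12 replicate 2; 0.0439 with a replicate block within each regime) or by clock time (0.53), nor without the 2 discordant arrays (0.289 and 0.634; variation 0.999).

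**Figure D3:**
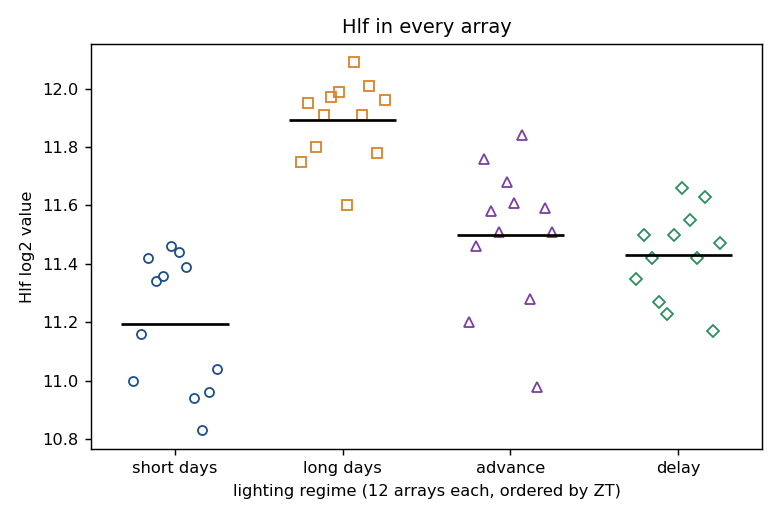
Log2 value of Hlf (vertical axis) in each of the 12 arrays of the 4 lighting conditions (horizontal axis), ordered by ZT within a condition; black lines are means. The long-day arrays, from 11.60 to 12.09, all lie above the short-day arrays, and the first-day arrays overlap both groups.

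Several genes on the PT marker list were higher with Hlf. Of the 6 measured genes on the list, 5 passed with a higher day mean under long days, against 17.6% of all genes. Tshb was higher by 3.56, Dio2 by 1.02, Eya3 and Mtnr1a by 0.90 each, and Pitx1 by 0.58. Cga, the alpha subunit of the pituitary glycoprotein hormones, differed by 0.03 (adjusted p = 0.677). Dio2 is not specific to the PT and Tshb is induced by long days, so the list does not measure the amount of PT tissue. The summed level of the 6 ran from 14.08 to 14.81 (log2) under short days, 15.28 to 15.72 under long days, 14.82 to 15.58 in the advance and 14.29 to 14.93 in the delay condition. Tanycyte markers, from the neighbouring cells that line the ventricle, summed to 13.89 to 14.40 under short days and 13.63 to 13.94 under long days. Of these 4 of 5 were lower, and so were 3 of 5 ependymal markers, against 29.1% of all genes. Markers of other cells changed too. Of 5 astrocyte markers 2 were higher and 2 lower. In the hypothalamic neuron list Slc32a1, Sst and Syt1 were lower (-0.72, -0.57 and -0.30) and Snap25 was higher (0.23). None of these PT, tanycyte and ependymal markers was below the arrays' first quartile. The actin probe signal at the 3′ minus the 5′ end, a measure of RNA integrity, was 1.89 ± 0.12 (SD, n = 12) under short days and 1.65 ± 0.12 under long days, and with it as a covariate the Hlf difference was 0.69. The markers' part in the Hlf difference was not tested.

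On the brightest probe sets, Dbp, Tef and Nfil3 peaked in the same order in the 4 conditions. The Tef peak came 2.09 h after that of Dbp under short days, 1.95 h under long days, 2.12 h in the advance and 2.43 h in the delay condition, with the replicates of each condition between 0.787 and 2.88 h. Under delay the other Tef probe sets peaked at ZT 5.75 and 7.09, not after Dbp at ZT 7.11, so the order there rests on the brightest Tef probe set. The Nfil3 peak came 12.3, 10.9, 12.0 and 12.3 h after Dbp in the same order, so it lay nearly opposite. Hlf peaked 4.20 h after Dbp under short days and 2.52 h after it in the advance condition. These times come from a cosine on samples 4 h apart and carry no test.

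By clock hour, the peaks under long days were later than under short days by 4.87 ± 0.652 h for Dbp, 4.73 ± 0.823 h for Tef and 3.41 ± 0.807 h for Nfil3. The replicates gave 4.36 and 5.53 h for Dbp, 5.61 and 3.67 h for Tef, and 4.93 and 1.28 h for Nfil3. Relative to lights off, the chronic photoperiods came closer together: Dbp peaked 4.82 h before lights off under short days and 3.95 h before it under long days, and Tef 2.73 and 2.01 h before it. In the delay condition the Dbp peak preceded lights off by 8.89 h and that of Tef by 6.46 h.

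**Figure D4:**
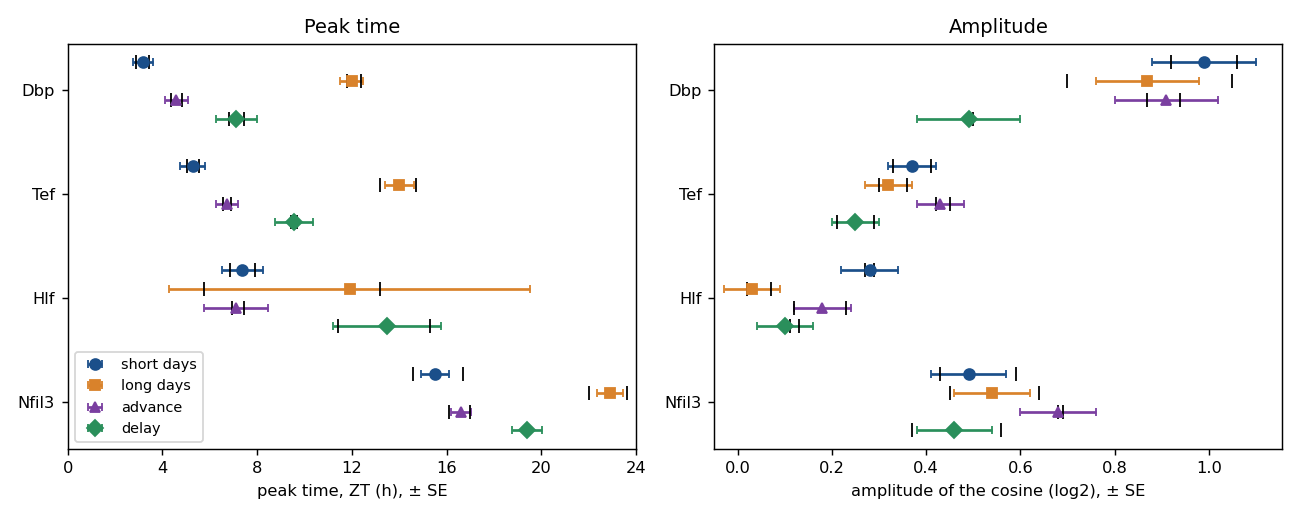
Left, fitted peak time as ZT in hours with its SE, and right, amplitude of the 24 h cosine in log2 units with its SE, for each gene (rows) and condition (symbols); black ticks are fits to each replicate alone. Dbp, Tef and Nfil3 peak latest under long days, at ZT 12.0, 14.0 and 22.9, and the amplitude of Dbp is smallest in the delay condition at 0.49.

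On the first day with a delayed dark period, Dbp and Tef were higher than under short days at ZT12, in the added evening light. At ZT16 neither differed from short days by the limma test (0.19 ± 0.24, adjusted p = 0.658 for Dbp and 0.12 ± 0.11, adjusted p = 0.538 for Tef). The Dbp values were 11.68 and 11.90 at ZT0, 11.99 and 12.08 at ZT4, 12.38 and 12.50 at ZT8, 12.15 and 12.34 at ZT12, 11.27 and 11.10 at ZT16, and 11.53 and 11.78 at ZT20. Both ZT12 arrays stood above both short-day arrays of that time (11.0004 and 11.05), and both ZT4 arrays below (13.04 and 12.78). Dbp was thus 2.33-fold higher at ZT12 (1.22 ± 0.24, adjusted p = 0.00332, against 4.53% of all genes) and 1.84-fold lower at ZT4 (fell by 0.88 ± 0.24, adjusted p = 0.00602, against 27.7%). The course over the day differed from short days (adjusted p = 0.00462), as did that of Tef (0.00745), so for 2 of 4 members, against 1.84% of all genes. With a replicate block within each regime it also passed for Hlf (0.0456) and Nfil3 (0.0338), so for all 4. Variation over the delay day passed for Dbp, Tef and Nfil3 (adjusted p = 0.0147, 0.0139 and 0.00382) against 1.52%. For Dbp it did not pass without delay ZT8 replicate 2 (0.0641) or either array of ZT16 (0.064 and 0.114).

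The mean of ZT12 and ZT16 relative to ZT0 to ZT8, set against the same difference under short days, was higher by 1.12 ± 0.22 for Dbp (2.18-fold, adjusted p = 0.00616) and by 0.47 ± 0.10 for Tef (1.39-fold, adjusted p = 0.0129), 2 of 4 members, where 6.11% of all genes passed, 5.16% higher and 0.951% lower. Hlf, at 0.32 ± 0.12, and Nfil3, at -0.38 ± 0.16, did not pass (adjusted p = 0.0784 and 0.122), though the difference of Hlf passed with that block. The step from ZT8 to ZT12 alone did not pass for any member (Dbp 1.03 ± 0.34, adjusted p = 0.627), where 0.0385% of genes passed. Part of the evening contrast lay in the morning arrays, taken before any added light, in which Dbp and Tef were lower than under short days at ZT4. Over ZT0 to ZT8 alone the F test of course did not pass for any member (adjusted p = 0.238 for Dbp, 0.115 for Tef, 0.472 for Hlf and 0.109 for Nfil3, 0.616% of all genes). Its unadjusted p was 0.00941 for Dbp, 0.00153 for Tef, 0.0655 for Hlf and 0.00134 for Nfil3, so it does not show that the morning courses were alike.

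Tef under delay gave 11.09 and 11.36 at ZT0, 11.37 and 11.24 at ZT4, 11.63 and 11.63 at ZT8, 11.66 and 11.64 at ZT12, 11.17 and 11.27 at ZT16, and 11.20 and 11.19 at ZT20. At ZT12 both arrays were above those of short days (0.45 ± 0.11, adjusted p = 0.0151), and at ZT4 both were below (fell by 0.54 ± 0.11, adjusted p = 0.000515). The difference in course did not pass without delay ZT4 replicate 2 (adjusted p = 0.0567), and the variation over the day did not pass without either array of ZT8 (0.0511 and 0.0539) or of ZT12 (0.0711 and 0.0565). On the other Tef probe sets neither the course nor the evening difference passed.

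The fitted peaks under delay were later than under short days by 3.93 ± 0.966 h for Dbp (ZT 7.11), 4.27 ± 0.971 h for Tef (ZT 9.54) and 3.84 ± 0.868 h for Nfil3 (ZT 19.4). These fits include the arrays of ZT0, ZT4 and ZT8, taken before the added light. Dbp and Tef were already lower than under short days at ZT4, and Nfil3 at ZT8. These differences enter the fitted peaks and amplitudes of the 3 genes. The Dbp amplitude was smaller by 0.49 ± 0.16 log2 units than under short days, and was 0.49 and 0.50 in the replicates alone. The Nfil3 values were 7.36 and 7.20 at ZT0, 6.74 and 6.49 at ZT4, 6.86 and 6.26 at ZT8, 6.95 and 6.74 at ZT12, 7.36 and 7.27 at ZT16, and 7.43 and 7.29 at ZT20. At ZT8 both arrays lay below those of short days (fell by 0.51 ± 0.17, adjusted p = 0.0355, against 18.3% of all genes). Its difference in course did not pass (adjusted p = 0.0676), and passed without short-day ZT4 replicate 2 (0.0428), short-day ZT16 replicate 1 (0.0399) or delay ZT8 replicate 1 (0.0228), and with a replicate block (0.044 over all arrays).

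Hlf under delay gave 11.35 and 11.50 at ZT0, 11.42 and 11.27 at ZT4, 11.23 and 11.50 at ZT8, 11.66 and 11.55 at ZT12, 11.42 and 11.63 at ZT16, and 11.17 and 11.47 at ZT20. Its arrays of ZT16 lay above those of short days, 10.94 and 10.83 (0.63 ± 0.13 higher, 1.55-fold, adjusted p = 0.00167, against 11.7% of all genes). No variation over the delay day passed for Hlf (adjusted p = 0.711).

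In the advance condition the courses did not differ from the short-day courses by the F test, which does not show that they were alike. Dbp gave 10.50 and 10.57 at ZT16, when the early lights came on, then 11.13 and 11.08 at ZT20, 11.64 and 11.87 at ZT0, 12.51 and 12.34 at ZT4, 12.10 and 12.20 at ZT8, and 11.002 and 11.40 at ZT12. As under short days the ZT4 arrays were highest and those of ZT16 lowest, and the fitted peak was ZT 4.59 ± 0.469 h, later than under short days by 1.41 ± 0.637 h. The peak of Tef was later by 1.44 ± 0.712 h and that of Nfil3 by 1.04 ± 0.734 h, and the Nfil3 replicates differed in sign (2.38 and -0.633 h). All 4 members varied over the advance day (adjusted p = 4.91e-06 for Dbp, 3.24e-06 for Tef, 0.0187 for Hlf and 2.71e-06 for Nfil3; 2.58% of all genes), and none differed in course from short days (adjusted p = 0.688, 0.643, 0.793 and 0.745; 0.308%). For Hlf the variation did not pass without advance ZT16 replicate 2 (0.25) or ZT12 replicate 2 (0.068).

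The change from ZT16 to ZT20, the first 4 h of early light, did not differ from that under short days for any member by the test: it was -0.07 ± 0.34 for Dbp, -0.20 ± 0.16 for Tef, 0.31 ± 0.18 for Hlf and -0.03 ± 0.25 for Nfil3 (0.22% of all genes passed). For the later hours of the advance day, ZT0 to ZT8 relative to ZT16, no gene of the 18194 passed in limma, 0%, with 1679 at an unadjusted p under 0.05; the differences were 0.07 ± 0.27 for Dbp and -0.35 ± 0.20 for Nfil3. Tef in the advance condition ran from 10.74 to 11.70 with a median of 11.23, and its lowest arrays were both at ZT20. Hlf in the advance condition was higher than under short days at ZT20 (0.55 ± 0.13, adjusted p = 0.00186, against 23% of all genes). At ZT16 its difference of 0.24 ± 0.13 did not pass (adjusted p = 0.203).

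**Figure D5:**
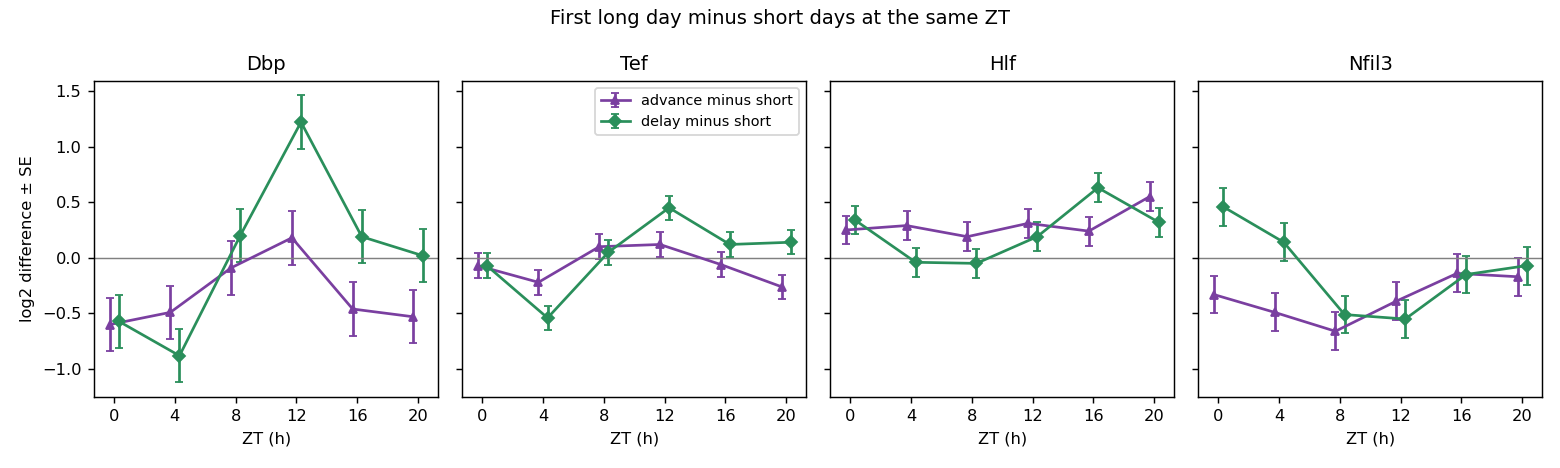
Log2 difference from short days at the same ZT (vertical axis, with its SE) against ZT in hours (horizontal axis) for the advance (triangles) and delay (diamonds) conditions, 2 arrays against 2 at each point. In the delay condition Dbp lies 0.88 below short days at ZT4 and 1.22 above at ZT12, and Tef follows with smaller steps.

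The level of Nfil3 over ZT0 to ZT8 differed between the first-day conditions. In the advance condition its values were 6.76 and 6.24 at ZT0, 5.90 and 6.08 at ZT4, 6.41 and 6.42 at ZT8, 6.995 and 7.02 at ZT12, 7.32 and 7.33 at ZT16, and 7.27 and 7.27 at ZT20. Both arrays of ZT0 and of ZT4 lay below both delay arrays of those times. Over ZT0, ZT4 and ZT8, when the advance animals had been in light since ZT16 and the delay animals since ZT0, Nfil3 was lower in the advance condition by the test (fell by 0.52 ± 0.10, 1.43-fold, adjusted p = 0.00101, 1 of 4 members, against 8.76% of all genes, 5.54% higher and 3.22% lower). At ZT4 alone the difference did not pass (-0.63 ± 0.17, adjusted p = 0.1, where 0.357% of all genes passed), nor at ZT8 (6.41 and 6.42 against 6.86 and 6.26, adjusted p = 0.753, where 2.08% of all genes passed), while at ZT0 it did (fell by 0.78 ± 0.17, adjusted p = 0.0494, against 0.159%). Against short days Nfil3 was lower in the advance condition at ZT4 (fell by 0.49 ± 0.17, adjusted p = 0.0355, 25.4%) and ZT8 (fell by 0.66 ± 0.17, adjusted p = 0.00914, 15.5%). At ZT0 neither condition differed from short days by the test. The advance difference was -0.33 ± 0.17 (adjusted p = 0.173) and the delay difference 0.46 ± 0.17 (0.0609). The Nfil3 day mean in the advance condition was 6.75 against 7.11 under short days (fell by 0.36 ± 0.07, adjusted p = 5.51e-05), where 51.4% of all genes changed. Dbp at ZT12 and Tef at ZT20 were also lower in the advance than in the delay condition. They fell by 1.05 ± 0.24 (adjusted p = 0.0168, 1.81% of all genes) and 0.40 ± 0.11 (0.0419, 2.98%).

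In the order of their day means, Hlf was lowest under short days at 11.20, then 11.43 in the delay, 11.50 in the advance and 11.89 under long days (each ± 0.04, SE of the fit). The advance and delay means did not differ beyond their spread (-0.07 ± 0.05, adjusted p = 0.36, 24.1% of all genes), and every other pair did (adjusted p between 1.14e-12 and 0.000363; 49.8% of all genes for delay against short days, 34.6% for advance and 47.5% for delay against long days). Dbp had day means of 11.86, 11.77, 11.53 and 11.89 under short days, long days, advance and delay. Its advance mean was lower than the short-day mean (fell by 0.33 ± 0.10, adjusted p = 0.00441) and the delay mean (adjusted p = 0.00594). The Tef means, from 11.28 to 11.37, passed in no pair; after a further quantile normalization Tef was higher in the delay condition than under short days (0.13, adjusted p = 0.0107), long days (0.21, 6.40e-05) and advance (0.13, 0.0204), and Dbp was higher in the delay condition than under long days (0.27, adjusted p = 0.0148, against 0.298 before it).

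The first-day mice were 2 weeks younger than the chronic groups, and before any added light they already differed from short days. Over advance ZT16 and delay ZT0, ZT4 and ZT8, Dbp was lower than in short-day arrays of the same ZT (fell by 0.43 ± 0.12, adjusted p = 0.00337), and Tef was lower by the test too (fell by 0.16 ± 0.06, adjusted p = 0.0203), 2 of 4 members, where 48.8% of all genes passed, 21.8% higher and 27% lower. Hlf differed by 0.12 ± 0.06 and Nfil3 by -0.01 ± 0.09, and neither passed (adjusted p = 0.108 and 0.913). The Nfil3 mean joined delay differences of opposite sign, 0.46 ± 0.17 at ZT0 and -0.51 ± 0.17 at ZT8, of which that at ZT8 passed (adjusted p = 0.0609 and 0.0355). The Tef difference did not pass without short-day ZT16 replicate 2, advance ZT16 replicate 1, delay ZT0 replicate 1 or delay ZT4 replicate 2, where it lay between -0.14 and -0.12. The 95th percentile of the arrays had medians of 11.34 and 11.36 in the short-day and long-day groups and 11.28 and 11.23 in advance and delay. After a further quantile normalization the difference was -0.28 for Dbp, which passed, -0.03 for Tef, which did not, and 0.25 for Hlf, which passed. In these arrays, taken before the added light, age, weeks spent under short days and the set of mice cannot be told apart. In the later first-day arrays the added light cannot be told apart from these either.

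Genes that share the family's clock input were examined in the same comparisons. Of 10 clock genes known for E-box control, 7 differed in course by clock time between long and short days, against 0.467% of all genes, among them Per2 (adjusted p = 7.24e-06), a repressor of the clock, and Nr1d1 (6.28e-07), which encodes REV-ERB alpha. In the delay evening contrast, taken relative to ZT0 to ZT8, 7 of the 10 were higher and none lower, against 5.16% and 0.951% of all genes. The median was 0.52 against 0.06 over all genes. Per2 was higher by 1.14 ± 0.13 (adjusted p = 9.37e-06), Ciart by 1.06 ± 0.19 (0.00296) and Usp2 by 0.52 ± 0.09 (0.00322). Low morning values also raise this contrast. Over advance ZT16 and delay ZT0 to ZT8, before the added light, 4 of the 10 were lower than under short days and none higher. The shares of all genes were 27% and 21.8%. Of the 4 measured genes known for ROR element control, the class to which Nfil3 belongs, 3 were lower in the same contrast, against 0.951% of all genes, with a median of -0.56. Npas2 fell by 0.72 ± 0.12, Arntl, which encodes BMAL1, by 0.70 ± 0.14, and Cry1 by 0.41 ± 0.12. Clock, the fourth, was at -0.17 ± 0.10 (adjusted p = 0.295). Their comparisons use the same arrays as those of the members.

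Genes on the output side were read the same way. Of 10 clock and photoperiod genes with a described D-box, 8 changed in day mean between long and short days, 7 upward, against 46.7% and 17.6% of all genes, with a median of 0.23 against -0.03 over all genes. They included Tshb (3.56 ± 0.16), Eya3 (0.90 ± 0.07) and the nuclear receptor gene Rora (0.57 ± 0.06), and 6 of the 10 varied over the short day, against 8.91% of all genes. Tshb varied over the short day by no amount that passed (adjusted p = 0.991). Tshb and Eya3 entered the list from work that includes the study of these arrays, so they are no independent evidence of its direction, and Per1, Per2, Per3, Nr1d1, Nr1d2 and Cry1 stand in more than 1 list. Of 11 measured metabolic genes known as PAR bZIP targets in liver and kidney, 1, the glutathione transferase gene Gstt3 (adjusted p = 0.0488), varied over the short day, and none over the long or the advance day, against 8.91%, 1.63% and 2.58% of all genes. Their day means under long days were higher for 2 and lower for 4, a share of the 11 near the 46.7% of all genes that changed: the retinaldehyde dehydrogenase gene Aldh1a1 was higher by 1.24 ± 0.07 and Pdxk, pyridoxal kinase, fell by 0.32 ± 0.04. Of the 5 measured C/EBP family genes, other bZIP factors, 1 varied over the short day, against the same 8.91%. Among 11 measured casein kinase and other clock regulator genes 4 did, and among 4 measured ROR and REV-ERB receptor genes 2 did.

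The genes whose pattern was most like that of each member were ranked by Pearson's r over the 24 group means, which share arrays and normalization, so the values only describe likeness. For Dbp they were Pecr (r = 0.903), Rsad1 (0.872), C1qtnf12 (0.862), Nr1d2 (0.851) and Mapk12 (0.847), with Hnrnpc (-0.896), Dhx29 (-0.836) and Fer (-0.813) most opposite. For Tef they were Nr1d2 (0.930), Tspan4 (0.928), Ciart (0.913), Per3 (0.909) and Tex11 (0.866, at a dim mean level of 4.34), with Arntl (-0.926), Leo1 (-0.875) and Smarcal1 (-0.823) most opposite. Nr1d2, which encodes REV-ERB beta, was the gene that both lists held.

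Hlf was most like P2rx4 (0.923), Hey2 (0.913), Slc7a2 (0.891), Tmprss2 (0.890) and Gca (0.888), and most opposite to Tmem106a (-0.917), Zfp202 (-0.906) and Tusc1 (-0.878). Nfil3 was most like Sh3pxd2b (0.834), Dnajb2 (0.817), Skil (0.816), Vps13c (0.814) and Hsph1 (0.797), and most opposite to Ankrd16 (-0.893), Rhebl1 (-0.860) and Rsad1 (-0.834). Rsad1 was thus near Dbp and opposite to Nfil3. Among the members, r was 0.828 for Dbp and Tef, -0.783 for Dbp and Nfil3, -0.727 for Tef and Nfil3, and 0.133 for Dbp and Hlf.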

How the data were processed

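Gene expression was measured on 48 Affymetrix arrays, 4 lighting conditions with 12 arrays each, in 24 groups of 2. The authors deposited log2 expression values; per the submitters' processing notes they were made with RMA in R 2.8.0. Of 45101 probe sets, 34958 had 1 gene symbol in the platform annotation, 932 several and 9211 none; the probe set with the highest mean stood for each of 18194 genes. A model of 24 group means was fitted to all genes with limma 3.58.1 in R 4.3.3 (empirical Bayes with a trend, 24 residual degrees of freedom, two-sided), with Benjamini-Hochberg adjustment over all genes and a threshold of 0.05. It was tested on simulated data. Day means, variation over the day and courses were contrasts of that model; peak times and amplitudes came from a 24 h cosine per condition. No depth exists for arrays, and 2 arrays per group limit the precision.

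The members, the gene lists and the markers were chosen with earlier results of these data known. Beside the members, the text names the 5 most like and 3 most opposite genes of each, up to 4 genes of a list per comparison with the smallest p-values, and markers whose level moves with a result. Tests at single times, day means of all pairs of conditions, the delay course over ZT0 to ZT8, and the fits without both long-day arrays or with actin as a covariate were added after seeing the data. Shared replicate numbers did not pair the samples by their labels.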

Additional observations from a re-analysis of the deposited data

Results flagged for a closer look

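For 3 of the 4 genes the daily course differed between conditions by a test of the difference itself. Between long and short days matched by ZT, the adjusted p from limma was 1.26e-08 for Dbp, 1.06e-06 for Tef and 1.26e-05 for Nfil3, where 4.3% of all genes passed. Matched by clock time it was 0.000297 for Dbp and 0.0104 for Tef, where 0.467% did. Between the delay condition and short days it was 0.00462 for Dbp and 0.00745 for Tef, where 1.84% did. The delay difference includes values of Dbp and Tef at ZT4, before any added light, that were below those of short days.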

How the results depend on the processing

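Hlf was higher under long days in all the alternatives run, by 0.45 to 0.70, and by 0.66 to 0.74 without 1 array, and Dbp kept its calls of course by clock time (adjusted p up to 0.0415) and under delay (up to 0.0278). The Tef calls rested on its brightest probe set. For the second probe set and the mean, the wide replicate gaps under delay enter the spread used for every condition. Not passing there does not show that the course was absent. With the probe set of the second highest mean, that of the third and the mean of all 3, the adjusted p of its variation was 0.637, 0.19 and 0.175 under short days, 0.86, 0.997 and 0.334 under long days, 0.591, 0.366 and 0.126 under advance, and 0.709, 0.864 and 0.563 under delay. Its course gave 0.436, 0.253 and 0.0674 by ZT, 0.896, 0.982 and 0.792 by clock time, and 0.99, 0.543 and 0.905 under delay. Its delay evening difference was 0.11, -0.15 (reversed) and 0.14, and 0.33 after quantile normalization, none passing. Advance minus delay at ZT0 to ZT8 was 0.82 (passing) on the second and -0.21 on the third probe set, and the difference before the extra light was 0.12 on the third, -0.03 after quantile normalization and -0.16 with the replicate block within each regime, none of these passing.

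With only the regimes compared in the fit, and so fewer samples, the variation no longer passed for Dbp under long days (0.0645), Nfil3 under delay (0.0943), or Tef under delay (0.0598) and long days (0.131), nor did the Tef course by clock time (0.203). With the replicate block within each regime, the Hlf course passed under delay (0.0456) and under long days by ZT (0.0439), as did its delay evening difference (0.32), and the Nfil3 course under delay (0.0338; 0.044 with the block over all arrays). Beside these and the Tef call before the extra light given above, the block changed no other call of the members. The differences of replicate 1 minus replicate 2 correlated across genes with a median r over pairs of time points of 0.0328 under short days, 0.238 under long days, 0.0698 in the advance and 0.273 in the delay condition, and 0.0412 between conditions. Quantile normalization let the Hlf difference before the extra light pass (0.25), and on the second Hlf probe set the short-day variation did not pass (0.153). The cause of these changes was not tested.

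Peak times taken as the time point with the highest mean were ZT 4 for Dbp and Tef and ZT 12 for Hlf under short days, ZT 12 for Tef and ZT 0 for Nfil3 under long days, ZT 8 for Tef and ZT 12 for Hlf under advance, and ZT 12 for Tef under delay. The second probe set moved the Hlf advance peak to 9.45 and the Tef delay peak to 5.75, the third the Tef peaks to 11.9, 16.8, 10.2 and 7.09 (short, long, advance, delay), and the mean of probe sets the Tef delay peak to 7.03. Single replicates gave 22 for Nfil3 under long days and 14.6 and 16.7 under short days.

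Leaving out 1 array at a time gave these ranges where a call or peak changed: Dbp day mean -0.21 to 0.02, Dbp long-day peak 11.3 to 12.7 and Dbp delay variation 0.0156 to 0.114; Hlf before the extra light 0.09 to 0.16, Hlf long-day course by ZT 0.02 to 0.24, Hlf peak under advance 5.65 to 9.08 and under long days 0.504 to 14.8, Hlf advance variation 0.0128 to 0.25; Nfil3 delay course 0.0228 to 0.135; Tef before the extra light -0.19 to -0.12, Tef delay course 0.00398 to 0.0567, Tef course by clock time 0.000175 to 0.0561, Tef day mean -0.11 to -0.03 and Tef delay variation 0.00649 to 0.0711.

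Counts over all genes moved more than the members. With only the regimes compared, the genes that varied were 89 against 1621 under short days, 83 against 296 under long days, 1325 against 470 under advance and 92 against 276 under delay; the course counts were 271 against 782 by ZT, 31 against 85 by clock time and 63 against 335 under delay, and the evening count was 75 against 1112. The block within each regime gave 2838, 736 and 497 varying genes under short days, advance and delay, and 1265, 138, 867 and 2389 for these courses and the evening, with 578 and 1838 for the last 2 with the block over all arrays. Quantile normalization gave 173 for the delay course and 54 for the evening, the mean of probe sets 505 for the evening, genes above the median level 56 for the clock-time course, and the actin covariate 86 for the evening, 5006 against 8503 for the day mean and 935 against 1593 for advance minus delay. The count of 7 for ZT8 to ZT12 ran from 1 to 11. Without 1 array it ran from 0 to 6, the evening count ran from 139 to 2632, the advance ZT16 to ZT20 count from 18 to 334, and the later advance hours, with 0 over all arrays, from 0 to 607. The count for the delay course then ran from 116 to 1110, by clock time from 60 to 349, by ZT from 499 to 1456, for the advance course from 27 to 304, for advance minus delay from 826 to 1843, and for variation under short days from 901 to 2765 and under delay from 172 to 273.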
